A study of Arabidopsis thaliana with 9 samples.

Results

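WES1, GH3.3, IAA29 and YUC4 are 4 auxin genes of Arabidopsis thaliana, and their transcript levels were followed in seedlings mutated in 2 subunits of the Mediator CDK8 module. They were chosen by their annotated names, and each had 1 probe set of its own (4 of 16826 probe sets that are not array controls, of which 9335 carried a single gene name). The 9 expression arrays came from 3 genotypes in the Col-0 background, with 3 biological replicates each: cct-1 mutants (mutated in CCT, which encodes MED12) at 9 days, gct-2 mutants (mutated in GCT, which encodes MED13) at 9 days, and wild type at 7 days. Each replicate was a pool of the shoots of 75 to 100 soil-grown plants kept at 23 °C under 16 h of light, taken once the first pair of leaf primordia measured 1 mm, and plants without cotyledons or primordia had been set aside. Mutants reached that stage 2 days later, so genotype and age cannot be told apart in any comparison with wild type, whereas the mutants were of equal age. RNA came from whole shoots, so fewer cells of a type and less RNA per cell cannot be told apart either.

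Auxin (indole-3-acetic acid, IAA) is made from tryptophan in a pair of steps, the last of which is carried out by flavin monooxygenases of the YUCCA family, to which YUC4 belongs. GH3 amido synthetases such as WES1 (also called GH3.5) and GH3.3 join free IAA to amino acids and so lower the active pool, and many GH3 genes are themselves switched on by auxin. Aux/IAA proteins such as IAA29 repress auxin response factors until auxin triggers their breakdown, and IAA29 is also known as a gene switched on in shade and warmth. In shoots this pathway is known for its part in leaf initiation, organ growth and shade responses.

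The 4 genes went different ways. WES1 rose in both mutants, and GH3.3, whose product carries out the same kind of reaction, fell in both. IAA29 rose in gct-2 and did not pass the test in cct-1. YUC4 was not called in any comparison. With limma and a Benjamini-Hochberg adjusted p under 0.05 over all 16826 probe sets as the call, cct-1 differed from wild type in 2 of the 4 genes (1 higher, 1 lower) and in 11.7% of all probe sets. gct-2 differed from wild type in 3 of the 4 (2 higher, 1 lower) and in 15.7% of all probe sets. Between cct-1 and gct-2 the count was 2 of 4 (1 higher, 1 lower in cct-1), against 4.59% of all probe sets. A call together with a difference of at least 2-fold was reached by 1 gene in cct-1 (3.14% of all probe sets), by 3 in gct-2 (4.25%) and by 1 between the mutants (0.963%). The genes were picked with earlier results of these arrays known, so these counts say nothing of auxin genes in general. Comparisons of the mutants with wild type share the wild-type arrays.

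All 4 genes gave dim signals. IAA29, YUC4 and GH3.3 lay under the 40th percentile of their array on all 9 arrays, and that percentile was between 6.82 and 6.87 on the log2 scale. WES1 lay above it on 3 arrays, replicates 1 and 2 of cct-1 and replicate 1 of gct-2, and so would pass a filter that asks for 3 arrays only through the genotypes in which it is high. Levels under that mark were not shown to be above background, so the true size of the folds given here is not known.

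**Figure D1:**
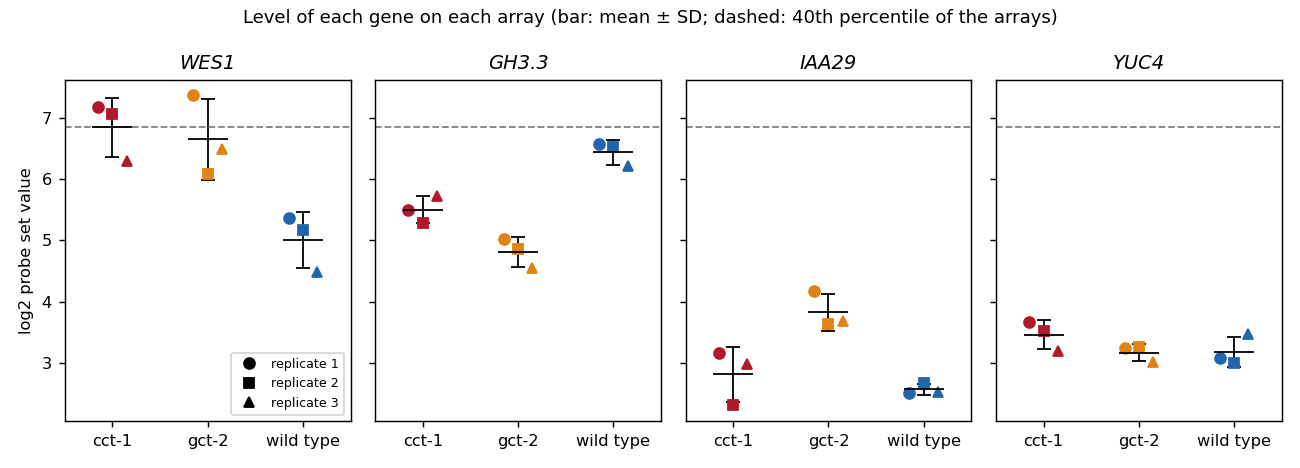
Log2 probe set values (vertical axis) of WES1, GH3.3, IAA29 and YUC4 on each of the 9 arrays, with cct-1, gct-2 and wild type along the horizontal axis; symbols mark the replicate, bars the mean ± SD of 3 arrays, and the dashed line the median over arrays of each array's 40th percentile. WES1 sits higher and GH3.3 lower in both mutants than in wild type, IAA29 stands out in gct-2, and the YUC4 arrays overlap.

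WES1, whose product conjugates IAA and is also known to act on salicylic acid, had log2 values of 7.18, 7.06 and 6.30 on the cct-1 arrays, 7.37, 6.08 and 6.50 on the gct-2 arrays, and 5.37, 5.17 and 4.48 on the wild-type arrays, in the order of replicates 1 to 3. All 6 mutant arrays lay above all 3 wild-type arrays, while the mutants overlapped each other. Such a separation above wild type was found for 16.5% of all probe sets in cct-1 and 18.3% in gct-2. The means were 6.85 ± 0.48 in cct-1, 6.65 ± 0.66 in gct-2 and 5.01 ± 0.46 in wild type (SD, n = 3 each). WES1 was thus 3.58-fold higher in cct-1 than in wild type (log2 difference 1.84, 95% interval 1.01 to 2.67, limma adjusted p = 0.0145). In gct-2 it was 3.12-fold higher (log2 difference 1.64, 95% interval 0.81 to 2.48, limma adjusted p = 0.0182). Among all probe sets 59 (0.351%) had a larger increase in cct-1 and 98 (0.582%) in gct-2.

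The mutants' WES1 levels were not told apart. Their log2 difference was 0.20 (95% interval -0.64 to 1.03, limma adjusted p = 0.806), an interval that leaves room for a 2.04-fold difference in favour of cct-1. WES1 was also the least precisely measured of the 4 genes: its standard error of 0.37 was larger than that of 97.5% of probe sets, whose median was 0.13. The call in cct-1 was narrowly lost without cct-1 replicate 1 (limma adjusted p = 0.0515) or cct-1 replicate 2 (0.0537), and the call in gct-2 without wild-type replicate 3 (0.0506), the dimmest WES1 array. With every level under its array's 40th percentile raised to that mark, WES1 differed by 1.14-fold in cct-1 and 1.13-fold in gct-2 and was not called in either (limma adjusted p = 0.34 and 0.704).

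GH3.3, an auxin-induced gene whose product conjugates IAA to aspartate, was lower in both mutants than in wild type. Its log2 values were 5.50, 5.28 and 5.72 in cct-1, 5.03, 4.85 and 4.55 in gct-2, and 6.57, 6.53 and 6.21 in wild type. The 3 genotypes did not overlap at all, with gct-2 lowest and wild type highest, and the gaps between neighbouring genotypes were 0.25 between the mutants and 0.49 between cct-1 and wild type. Of all probe sets 15.3% lay wholly below wild type in cct-1 and 18.8% in gct-2, and 13.8% lay wholly higher in cct-1 than in gct-2. The means were 5.50 ± 0.22 in cct-1, 4.81 ± 0.24 in gct-2 and 6.44 ± 0.20 in wild type (SD, n = 3 each).

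GH3.3 fell 3.09-fold in gct-2 (log2 difference -1.63, 95% interval -1.99 to -1.26, limma adjusted p = 0.000412). In cct-1 it fell 1.92-fold (log2 difference -0.94, 95% interval -1.31 to -0.57, limma adjusted p = 0.00762). Omitting any single array kept both calls, and the adjusted p then stayed at or under 0.00331 in gct-2 and 0.0351 in cct-1. Larger decreases were found in 164 probe sets (0.975%) in gct-2 and 433 (2.57%) in cct-1.

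The GH3.3 level in cct-1 was 1.61-fold above that in gct-2 (log2 difference 0.69, 95% interval 0.32 to 1.06), at the edge of the threshold (limma adjusted p = 0.0496). Omitting single arrays ended that call in 8 of 9 fits, the exception being the fit without gct-2 replicate 1 (adjusted p = 0.047), and the adjusted p reached 0.153 without gct-2 replicate 3. It was also lost with quantile normalization (0.0548), without probe sets of shared sequence (0.0501) and in a fit of the mutants alone (0.0786).

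**Figure D2:**
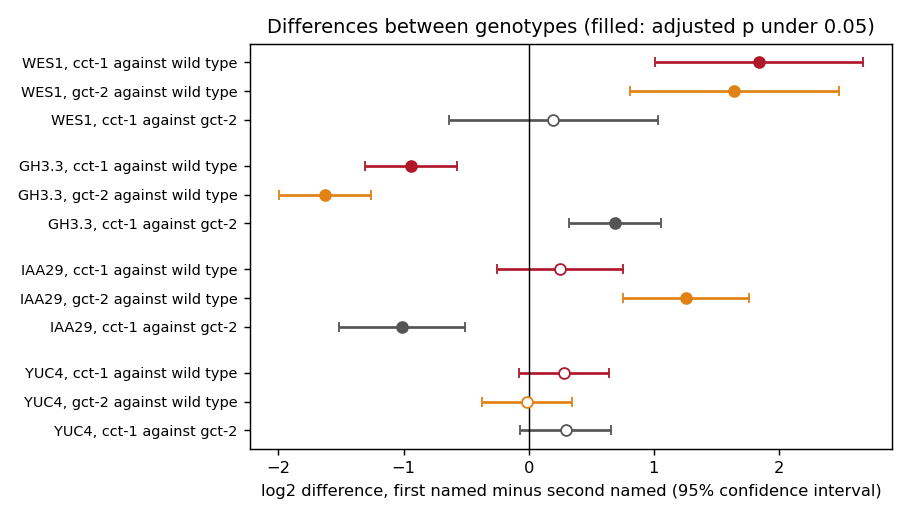
Log2 difference (horizontal axis, first named genotype minus second named) of the 4 genes in the 3 comparisons, with 95% confidence intervals from the limma fit of all 9 arrays; filled points have an adjusted p under 0.05. WES1 lies right and GH3.3 left of 0 in both mutants against wild type, IAA29 lies right of 0 in gct-2, and all YUC4 intervals include 0.

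IAA29, the Aux/IAA repressor gene, separated gct-2 from both other genotypes. Its log2 values were 3.16, 2.3 and 2.97 in cct-1, 4.17, 3.63 and 3.68 in gct-2, and 2.5, 2.66 and 2.53 in wild type. All gct-2 arrays lay above the other 6, while cct-1 had arrays on either side of the wild-type ones and spread more widely (SD 0.45 in cct-1, against 0.09 in wild type). In 11.9% of all probe sets the cct-1 arrays lay wholly below the gct-2 arrays, and in 18.3% the gct-2 arrays lay wholly above the wild-type arrays. The means were 2.81 in cct-1, 3.82 ± 0.30 in gct-2 and 2.56 in wild type.

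IAA29 was 2.4-fold higher in gct-2 than in wild type (log2 difference 1.26, 95% interval 0.76 to 1.76, limma adjusted p = 0.00639). Omitting any single array kept this call, with 0.0221 as the highest adjusted p. In cct-1 it differed by 0.25 (95% interval -0.26 to 0.75, limma adjusted p = 0.515), an interval that reaches a 1.68-fold increase. Set directly against each other, the mutants differed 2.02-fold, with IAA29 lower in cct-1 (log2 difference -1.01, 95% interval -1.52 to -0.51, limma adjusted p = 0.041). Omitting single arrays ended the call between the mutants in 8 of 9 fits, the exception being the fit without cct-1 replicate 1 (adjusted p = 0.0436). The adjusted p reached 0.0966 without gct-2 replicate 3 and 0.0864 in a fit of the mutants alone.

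YUC4, the auxin synthesis gene, had log2 values of 3.66, 3.52 and 3.2 in cct-1, 3.24, 3.26 and 3.01 in gct-2, and 3.08, 3.00 and 3.46 in wild type. The ranges of the 3 genotypes overlapped, and wild-type replicate 3 lay above all gct-2 arrays. The log2 difference from wild type was 0.28 in cct-1 (95% interval -0.08 to 0.64, limma adjusted p = 0.29) and -0.01 in gct-2 (95% interval -0.37 to 0.35, limma adjusted p = 0.963). cct-1 differed from gct-2 by 0.29 (95% interval -0.07 to 0.65, limma adjusted p = 0.334). The intervals bound an increase over wild type at 1.56-fold in cct-1 and 1.27-fold in gct-2 on the measured scale, and signals this dim may understate a change.

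Ordered by level, the genotypes thus ran gct-2, cct-1, wild type for GH3.3 with every step called, that between the mutants at the edge of the threshold. For WES1 they ran wild type, gct-2, cct-1 with the mutants not told apart. For IAA29 the order was wild type, cct-1, gct-2, where the step between wild type and cct-1 did not pass. The call between the mutants was lost in 8 of 9 fits that each omitted an array, for GH3.3 and for IAA29 alike. Within a genotype the 4 genes did not deviate together throughout. In gct-2 replicate 1 was the highest array for WES1, GH3.3 and IAA29. In cct-1 replicate 3 was lowest for WES1 and YUC4 and highest for GH3.3, and in wild type replicate 3 was lowest for WES1 and GH3.3 and highest for YUC4. An exact permutation test of 3 arrays against 3 cannot give a p under 0.1, so the calls rest on the spread shared over all 9 arrays and all probe sets.

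**Figure D3:**
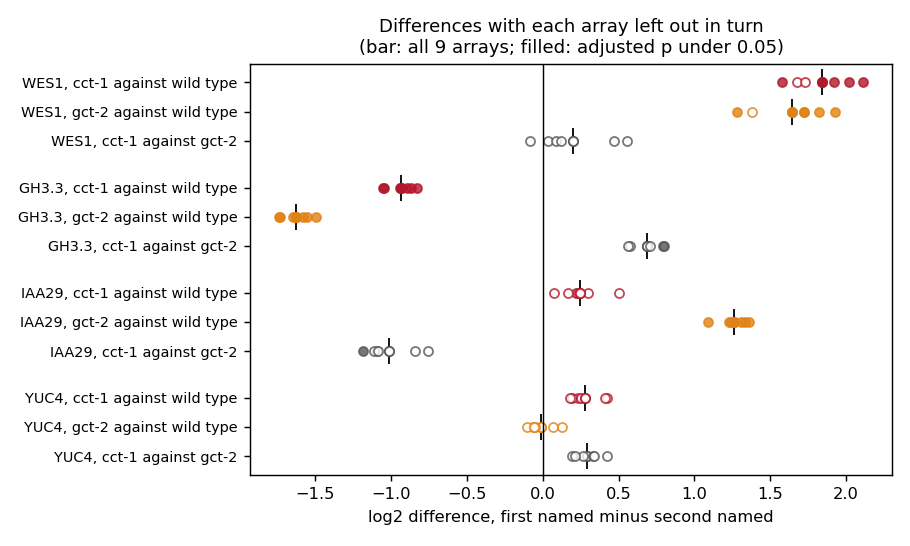
Log2 difference (horizontal axis, first named genotype minus second named) of each gene and comparison with each of the 9 arrays left out in turn (points) and with all arrays (bars); filled points have an adjusted p under 0.05. GH3.3 against wild type stays called in both mutants and IAA29 in gct-2, WES1 loses 2 calls in cct-1 and 1 in gct-2, and the differences between the mutants keep 1 call of 9 each for GH3.3 and IAA29.

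The surrounding pathway was followed through 9 lists of 255 genes in all, covering auxin synthesis, conjugation, transport, reception, Aux/IAA repressors, auxin response factors, auxin-responsive genes, the shade response and regulators of YUCCA genes. A named probe set was found for 25 of them, the 4 genes above included; the rest were not used here. No auxin transport gene and no auxin response factor was among the 25. Of the 21 that remain without the 4 genes above, 5 were higher and 1 was lower in cct-1 against wild type, with a median log2 difference of 0.07. In gct-2 against wild type 4 were higher and 3 lower, with a median of -0.03. Between the mutants 2 were higher and 0 lower in cct-1, with a median of 0.12. At an unadjusted p under 0.05, 6 of the 21 genes and 4707 of all 16826 probe sets stood in cct-1 against wild type, 8 genes and 5289 probe sets in the gct-2 comparison, and 4 genes and 3486 probe sets between the mutants. Over all probe sets 5.5% were called higher and 6.25% lower in cct-1, 7.53% and 8.16% in gct-2, and 2.45% and 2.13% between the mutants, and the medians were 0.02, -0.01 and 0.02. The lists are small, and 13 of the 25 genes lay under the 40th percentile on all arrays. The lists were also chosen with earlier results of these data known, so their counts say nothing of auxin genes in general.

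Of the 5 measured conjugation genes, WES1, GH3.3, GH3.9, GH3.17 and UGT74D1, 3 were higher and 1 lower in cct-1, and 3 were higher and 1 lower in gct-2. Over all probe sets 11.7% were called in cct-1 and 15.7% in gct-2. WES1 and GH3.3 count among these calls and were picked with earlier results known, so the counts say nothing of conjugation genes in general. GH3.17, whose product conjugates IAA to glutamate, was 1.54 log2 units higher in cct-1 (SE 0.27, limma adjusted p = 0.0074) and 1.45 higher in gct-2 (SE 0.27, limma adjusted p = 0.00746). Its log2 values were 6.58, 7.00 and 6.09 in cct-1, 6.75, 6.20 and 6.45 in gct-2, and 5.47, 4.86 and 4.71 in wild type, so that the mutants overlapped each other and neither overlapped wild type. Such a separation above wild type was found for 16.5% of all probe sets in cct-1 and 18.3% in gct-2. GH3.17 lay above the 40th percentile on 1 of 9 arrays, cct-1 replicate 2, so the true size of its folds is not known. Omitting any single array kept both calls. GH3.3 was thus the one gene of the 4 measured GH3 genes that fell.

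GH3.9, another member of the family, was 0.39 log2 units higher in gct-2 (SE 0.10, limma adjusted p = 0.034), at dim levels of 2.54 to 2.75 in gct-2 and 2.1 to 2.43 in wild type. Omitting single arrays ended this call in 6 of 9 fits, with 0.114 as the highest adjusted p, reached without wild-type replicate 2. In cct-1 it differed by 0.11. UGT74D1, an auxin glucosyltransferase, was 0.80 higher in cct-1 than in wild type (SE 0.19, limma adjusted p = 0.0291) and differed by -0.03 in gct-2, and cct-1 exceeded gct-2 by 0.83 (limma adjusted p = 0.0456). Its call against wild type was lost when cct-1 replicate 2 or 3 was omitted, and also on omitting wild-type replicate 2 (0.0953).

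IAGLU, annotated as an indole-3-acetate glucosyltransferase, was outside the lists and was found by its annotated name after the data had been opened. Its log2 values were 7.07, 6.88 and 7.02 in cct-1, 6.42, 5.65 and 5.64 in gct-2, and 5.65, 5.27 and 5.41 in wild type. It was 1.54 log2 units higher in cct-1 than in wild type (SE 0.20, limma adjusted p = 0.0023), differed by 0.46 in gct-2 (limma adjusted p = 0.161), and was 1.08 higher in cct-1 than in gct-2 (limma adjusted p = 0.0244). All cct-1 arrays lay above all gct-2 and wild-type arrays. Over all probe sets the cct-1 arrays lay wholly above wild type in 16.5% and wholly above gct-2 in 13.8%. IAGLU lay above the 40th percentile on the 3 cct-1 arrays only, so the true size of its folds is not known. ILR3, found in the same way and named for resistance to an IAA conjugate, differed by 0.07 in cct-1 and 0.16 in gct-2 and was not called.

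Among synthesis genes, YUC2 and YUC6 were not called in any comparison, like YUC4. YUC2 differed from wild type by -0.08 in cct-1 and -0.19 in gct-2, and YUC6 by 0.07 and -0.07. SKP2A, which encodes an auxin-binding F-box protein and was the one measured gene of the receptor list, rose in both mutants, by 1.2 in cct-1 (SE 0.23, limma adjusted p = 0.0121) and 0.96 in gct-2 (SE 0.23, limma adjusted p = 0.0241). The call in cct-1 was lost without wild-type replicate 2 (0.051) and that in gct-2 in 4 of 9 such fits (up to 0.0866 without the same array). SKP2A lay above the 40th percentile on 6 arrays, none of them wild type, so the true size of its folds is not known.

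The 3 other measured Aux/IAA genes, IAA18, IAA30 and IAA34, were called in no comparison, so IAA29 was the called member of 4. IAA18, the bright member with levels between 9.63 and 10.13, differed from wild type by 0.06 in cct-1 and 0.16 in gct-2. IAA30 differed by -0.18 and -0.39, and IAA34 by 0.14 and 0.01, both at levels under 3 on all arrays.

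Of the auxin- and shade-responsive genes, HAT2, an auxin-induced homeodomain-leucine zipper gene, fell in gct-2, as GH3.3 did. Its log2 values were 5.94, 5.61 and 6.14 in cct-1, 5.27, 5.24 and 5.50 in gct-2, and 6.63, 6.65 and 5.82 in wild type. HAT2 lay under the 40th percentile on all 9 arrays, so the true size of its folds is not known. The log2 difference was -1.03 in gct-2 (SE 0.23, limma adjusted p = 0.0176) and -0.47 in cct-1 (limma adjusted p = 0.221). The gct-2 call was lost when wild-type replicate 1 or 2 or gct-2 replicate 2 was omitted, reaching 0.0658 without wild-type replicate 2. XTH33, which encodes a xyloglucan-modifying cell wall enzyme, fell by 2.93 on the log2 scale in cct-1 (SE 0.41, limma adjusted p = 0.00298) and by 2.91 in gct-2 (SE 0.41, limma adjusted p = 0.00247). Its log2 values lay between 2.57 and 3.7 on the mutant arrays and between 5.14 and 6.88 in wild type. Of all probe sets 15.3% lay wholly below wild type in cct-1 and 18.8% in gct-2. XTH33 lay above the 40th percentile on 1 array, wild-type replicate 1, so the true size of its folds is not known.

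HYH, which encodes a bZIP factor related to the light-signalling regulator HY5, was called in cct-1 and not in gct-2. Its log2 values were 9.12, 8.83 and 8.93 in cct-1, 7.71, 7.18 and 6.93 in gct-2, and 7.71, 7.30 and 7.25 in wild type. HYH was 1.54 higher in cct-1 than in wild type (SE 0.20, limma adjusted p = 0.00232), differed by -0.15 in gct-2, and was 1.69 higher in cct-1 than in gct-2 (SE 0.20, limma adjusted p = 0.00584). Both calls held whichever array was omitted, on a gene above the 40th percentile on every array. FHL, a phytochrome A import gene, differed from wild type by 0.31 in cct-1 and 0.47 in gct-2, and BIM1 by -0.18 and 0.15, none of them called.

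Known or proposed regulators of YUCCA genes numbered 7 among the measured genes. NGA2, a NGATHA transcription factor gene of lateral organs, rose in cct-1 (log2 difference 0.75, SE 0.14, limma adjusted p = 0.0101) and in gct-2 (0.63, SE 0.14, limma adjusted p = 0.0165). All 6 mutant arrays, between 8.60 and 9.15, lay above the wild-type arrays, which lay between 8.06 and 8.28. A separation above wild type was found for 16.5% of all probe sets in cct-1 and 18.3% in gct-2. The gct-2 call was lost without wild-type replicate 2 (0.0503). SPT, a bHLH gene, fell in gct-2 (log2 difference -0.53, SE 0.13, limma adjusted p = 0.0289) and differed by -0.28 in cct-1, and the gct-2 call held in 4 of 9 fits that each omitted an array, reaching 0.084 without gct-2 replicate 3. SHI, NGA1, NGA3, JAG and PHV were not called, with differences from wild type between -0.23 and 0.22 over both mutants.

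**Figure D4:**
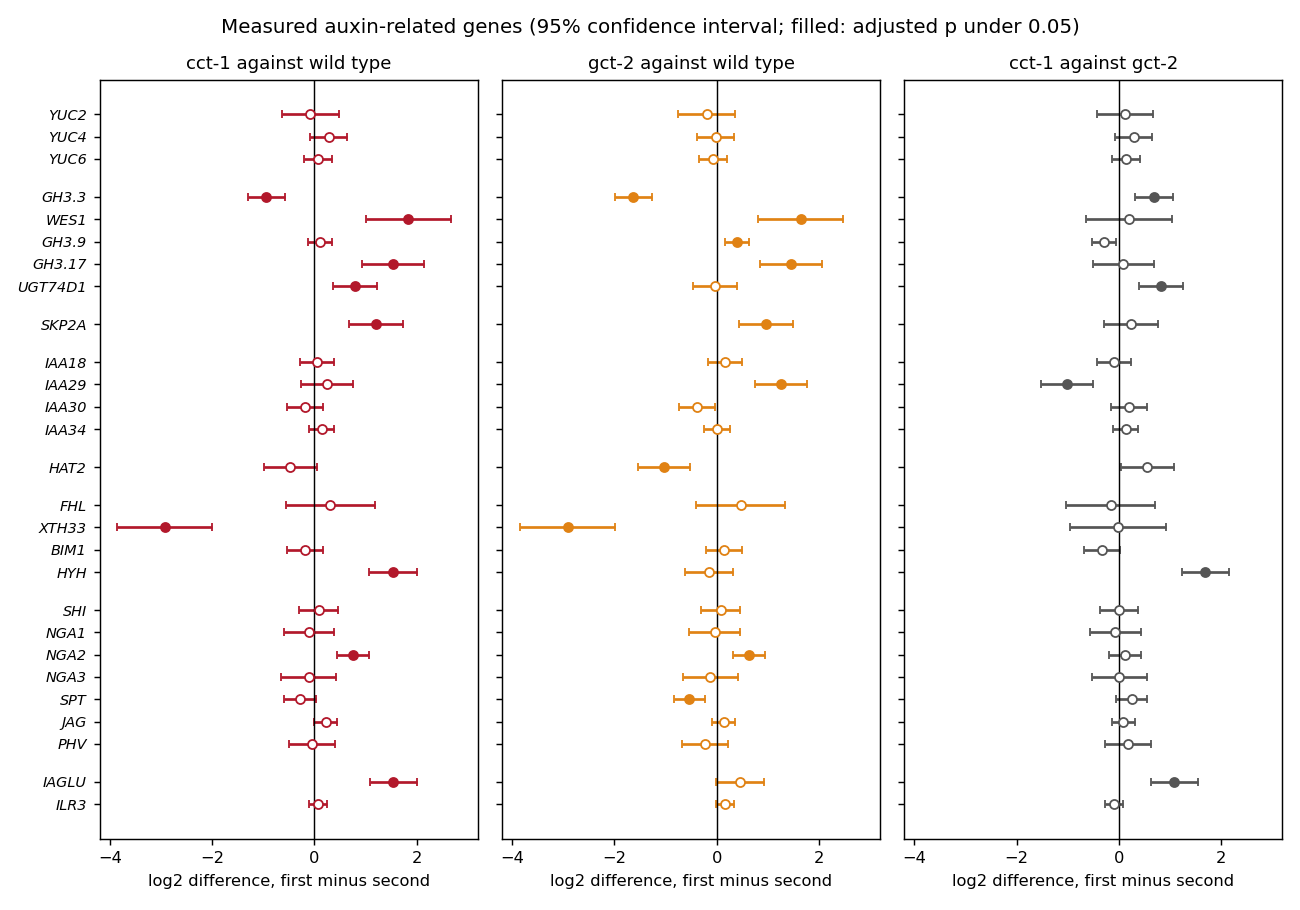
Log2 difference (horizontal axes, first named genotype minus second named, with 95% confidence intervals) of 25 auxin-related genes with a named probe set and of IAGLU and ILR3, grouped from top to bottom into synthesis, conjugation, reception, Aux/IAA, auxin-responsive, shade, YUCCA regulator and added genes; filled points have an adjusted p under 0.05. GH3.3 and WES1 lie on opposite sides of 0 in both mutants, GH3.17 lies beside WES1, and HYH, IAGLU and UGT74D1 are higher in cct-1 than in gct-2.

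Genes with a pattern like that of each of the 4 were sought by Pearson's r of log2 values over the 9 arrays, among 9331 other named probe sets. The 9 arrays fall into 3 genotypes, so r mostly reflects the steps between genotypes. For WES1 the highest values were 0.98 for AT1G53180, 0.962 for AT1G19650, 0.961 for AT3G52060, 0.96 for GH3.17 and 0.959 for SGP2, and 29 probe sets (0.311%) exceeded 0.9. GH3.17 was thus among the 5 most similar of all named probe sets. For GH3.3 they were 0.984 for AT1G78150, 0.983 for AT2G40480, 0.978 for AT3G56330, 0.977 for AT5G40460 and 0.973 for AT3G05730, and 118 (1.26%) exceeded 0.9. AT3G05730, above the 40th percentile on all 9 arrays, differed from wild type by -1.12 in cct-1 and -2.07 in gct-2 on the log2 scale, an order that its choice by likeness to GH3.3 fixes.

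For IAA29 the highest r was 0.962 for AT1G11880, followed by 0.951 for AT4G16180, 0.942 for AT5G39670, 0.934 for LUL1 and 0.932 for AT4G12840, and 24 (0.257%) exceeded 0.9. LUL1, above the 40th percentile on all arrays and likewise chosen by likeness, differed from wild type by 0.07 in cct-1 and 0.69 in gct-2. YUC4 had few close matches: AT5G06265 at 0.906 was the single probe set over 0.9, and AT4G12740, AT3G06710, AT5G17410 and AT1G14345 lay between 0.878 and 0.883. None of these 5 was called in any comparison.

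Tissue markers were thinly covered. The 7 measured genes of 39 leaf photosynthesis markers lay above the array median on all arrays. Their summed level on the log2 scale was 15.60 to 15.71 in cct-1, 15.77 to 15.82 in gct-2 and 15.77 to 15.81 in wild type. In cct-1 0 of 7 were called with limma, and the median log2 difference was -0.23. At an unadjusted p under 0.05 stood 4 of the 7 (PSAE-1, PSBW, PSAN and LHCB4.2, all lower), against 4707 of all 16826 probe sets. RCA differed by 0.08. In gct-2 1 of 7, LHCB4.2, was called higher, and the median was -0.01. LHCB4.2 was also called lower in cct-1 than in gct-2 (log2 difference -0.52, limma adjusted p = 0.012). Of 21 root markers PYK10, a beta-glucosidase gene of root and seedling endoplasmic reticulum bodies, was measured. It was higher in both mutants, at 12.12 to 12.31 in cct-1 and 12.07 to 12.27 in gct-2, against 11.33 to 11.61 in wild type (log2 differences 0.75 and 0.68, limma adjusted p = 0.00289 and 0.0034). PYK10 thus moved with WES1, GH3.17 and SKP2A, and its part in those results was not tested. Of 29 seed program markers SDP1, a triacylglycerol lipase gene, was measured and not called (-0.11 in cct-1 and 0.18 in gct-2).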

How the data were processed

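Biotin-labelled cDNA amplified from 50 ng of RNA per sample was hybridised to 9 arrays, 1 per sample, per the labels' protocols. The deposited table holds log2 values for 16863 probe sets, and this scale was read from the values themselves. GCRMA and MAS5 are named, without role or version, per the submitters' processing notes, and no source used here says how the probe sets were chosen. Array medians lay between 7.7 and 7.76, and the number of arrays limits the precision. The 37 control probe sets were left out. Correlations between arrays were 0.9889 to 0.9955 within a genotype and 0.9745 to 0.9898 between genotypes, and no 2 arrays were identical. No batch is named in the sources used here.

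The deposited values of 16826 probe sets on 9 arrays entered a single limma 3.58.1 model (R 4.3.3) with genotype means and no filter, and differences were called at an adjusted p under 0.05. It was tested on simulated data. Names came from the platform annotation and a RefSeq gene table (TAIR10.1), in which 242 of 255 listed genes were matched. Each measured list gene had a single probe set, so none had to be chosen. The text names the 4 genes, the measured list genes and the 5 named probe sets most like each gene. The 4 genes and the lists were chosen with earlier results of these data known. Probe, promoter and protein sequences were not used here. Alternatives covered filters, normalization, variance models, array weights, a replicate block, shared probe sets, single arrays, pairs of genotypes, raised dim levels and thresholds.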

Additional observations from a re-analysis of the deposited data

Results flagged for a closer look

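In the direct limma comparison of the mutants 4 of the 25 measured pathway genes differed, against 4.59% of all probe sets. That comparison is the test of whether the mutants' differences from wild type are unequal. GH3.3 and IAA29 are among the 4, and they and the lists were chosen with earlier results known. IAGLU, which was found by its annotated name after the data had been opened, differed too. GH3.3 was higher in cct-1 by 0.69 on the log2 scale (adjusted p = 0.0496), at the edge of the threshold. It was called in 1 of 9 fits with 1 array left out. IAA29 was lower in cct-1, with a difference of -1.01 (adjusted p = 0.041), and was likewise called in 1 of 9 such fits. UGT74D1 was higher in cct-1 by 0.83 (adjusted p = 0.0456), called in 2 of 9 fits with 1 array left out and reaching 0.139 without gct-2 replicate 2. IAGLU was higher by 1.08 (adjusted p = 0.0244), called in 4 of 9 such fits and reaching 0.0891 without gct-2 replicate 3. HYH was higher by 1.69 (adjusted p = 0.00584) and was called in all 9.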

How the results depend on the processing

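The calls of GH3.3 in both mutants and of IAA29 in gct-2, against wild type, held under all 7 alternatives that gave a value besides leaving out arrays. No filter kept GH3.3, IAA29 or YUC4, and raising dim levels gave no value for them, since all their levels were raised. For WES1 raised levels gave 0.19 in cct-1 and 0.18 in gct-2, neither called. With 1 array left out WES1 ranged from 1.58 to 2.11 in cct-1, from 1.28 to 1.93 in gct-2 and from -0.087 to 0.56 between the mutants, where the sign turned without gct-2 replicate 2. Between the mutants GH3.3 lost its call with quantile normalization (0.67), without shared probe sets (0.69) and with the mutants alone (0.69), and ranged from 0.56 to 0.80 with 1 array left out. IAA29 lost its call with the mutants alone (-1.01) and ranged from -1.19 to -0.76. YUC4 in gct-2 had a sign that turned with quantile normalization (0.0044), with array weights (0.038) and with 1 array left out (-0.11 to 0.13). The cause of these shifts was not tested.

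Same-numbered arrays did not deviate together (r between -0.28 and 0.10 over 9 pairs, and 3 of 18 best matches with the own number). With 3 arrays per genotype this cannot show whether they share more than a number. With the replicate number as a block the calls between the mutants of GH3.3 (0.69, adjusted p = 0.0881) and IAA29 (-1.01, adjusted p = 0.0512) were lost, 430 probe sets were called between the mutants and 1 pathway gene, and 1496 and 2167 in cct-1 and gct-2.

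In cct-1 1976 probe sets were called, 1037 with a 60th percentile filter, 896 with raised dim levels, 723 at an adjusted p under 0.01, 529 at 2-fold or more and 1050 to 1877 with 1 array left out. In gct-2 2640 were called, 1591 and 1097 with 40th and 60th percentile filters, 4037 with array weights, 1145 with raised levels, 1063 at 0.01, 715 at 2-fold and 1553 to 2678 with 1 array left out. Between the mutants 772 were called, 486 with the 60th percentile filter, 1219 with array weights, 413 with the mutants alone, 361 with raised levels, 118 at 0.01, 162 at 2-fold and 207 to 680 with 1 array left out. Of the 25 pathway genes 8 were called in cct-1, 10 in gct-2 and 4 when cct-1 was set against gct-2. The shares over all probe sets were 11.7%, 15.7% and 4.59%. WES1, GH3.3, IAA29 and YUC4 are among the 25, and they and the lists were chosen with earlier results known. The counts therefore say nothing of auxin genes in general. The pathway counts were 5, 4 and 2 with the 40th percentile filter, which tested 10 genes, and 2, 1 and 1 with the 60th, which tested 4. With raised levels they were 2, 1 and 1, with the mutants alone 1, and with 1 array left out 6 to 9, 5 to 10 and 1 to 3. The lowest pathway count came without wild-type replicate 2 in gct-2, and without that array or cct-1 replicate 2 in cct-1. The lowest counts of all probe sets came without wild-type replicate 2 in cct-1 and gct-2, and without gct-2 replicate 3 between the mutants.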
